A study of Mus musculus with 6 samples.

Results

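The epidermal kallikreins are 10 secreted serine proteases, Klk5 to Klk14, and all 10 were found by gene name among the 23361 genes of the deposited table. They were measured in taste cells isolated from the circumvallate and foliate (CV/Fol) papillae, which carry the taste buds of the rear tongue, of C57BL/6 mice aged 2 or 6 months. Each age had 3 RNA-seq libraries, each a pool of 4 mice at 2 months or of 3 mice at 6 months. The epithelium was peeled off with enzymes and cells were drawn up by suction, with no sort on a marker. The groups differed in age and pool size, and the sources name no treatment or altered gene in either of them. The sample labels give 2 and 6 months, while the series' design text names 3 months in 1 place. The table gives 1 FPKM value for each gene and age, estimated by the authors over the 3 libraries (FPKM counts fragments per unit of transcript length and per unit of mapped fragments, so levels of different genes can be compared per length). Values of single libraries were not analysed here, and the p-values of the authors' own comparison were not used. No SD or test is therefore given for any difference below, and whether a difference exceeds the spread between pools was not tested. Sequencing depth is unknown.

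Kallikreins are made as inactive proenzymes in the upper layers of stratified epithelia and are released into the space between the flattening cells. Klk5 can activate itself and the proenzymes of Klk7 and Klk14, and the active enzymes cut the proteins of corneodesmosomes, the junctions that hold the outermost cells together until they are shed. Spink5, also called LEKTI, holds the enzymes in check, and the loss of it in people causes excessive shedding of the skin. The comparison of 2 with 6 month taste cells asks how the RNA of these proteases stood in young adult and older adult tissue.

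All 10 members had a lower FPKM at 6 months than at 2 months as deposited, although Klk11 turned to the other side of 0 when both ages were scaled to the same sum. The summed level of the 10 was 2433 FPKM in 2 month and 1749.7 FPKM in 6 month cells, which is 28.1% lower. Among the 9 members whose mean reached 1 FPKM the gap was widest for Klk7, the chymotrypsin-like protease of the cornified layer, which was 6.31-fold lower, and for Klk9, which was 2.52-fold lower in FPKM. Klk5 was 1.82-fold lower from a low level, Klk8 was 1.68-fold lower, Klk14 was 33.2% lower and Klk11 was 1.06-fold lower. In such pooled tissue RNA, fewer cells of a type and less RNA per cell cannot be told apart.

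Differences are given below as log2(FPKM + 1), with the 2 month value subtracted from the 6 month value. This scale understates differences of low genes. Genes were counted at a mean of at least 1 FPKM. Of the 10 members 9 passed this filter, and Klk6 did not. The median difference of the 9 was -0.57, beside a median of -0.01 and quartiles of -0.10 and 0.08 over the 12652 genes that passed. A value lower by at least 2-fold on this scale was found for 2 of the 9 members, Klk7 and Klk9, beside 1.04% of all genes, and for 0.66% of the genes above 0 in both ages. No member was higher by at least 2-fold, beside 0.561% of all genes. At 1.5-fold the members were 3, with Klk8 added, beside 1.72% of all genes. Klk14 at -0.58 and Klk12 at -0.57 fell just short of it, and Klk5, at -0.53, would pass it with a pseudocount of 0.1 FPKM, at -0.81. A lower value of any size was found for 9 of the 9 and for 53.7% of all genes.

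**Figure D1:**
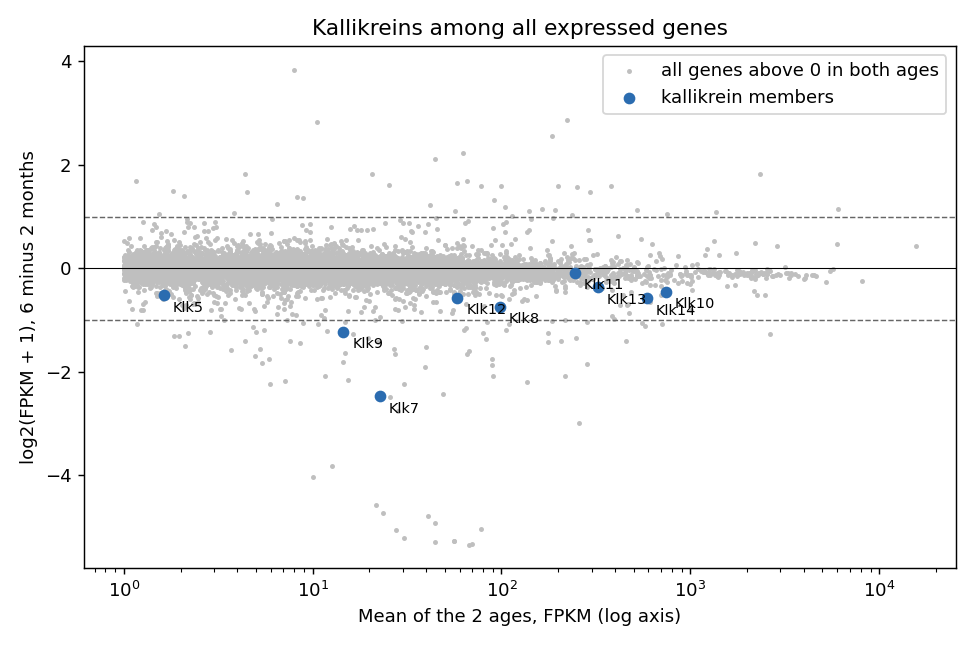
Each grey point is a gene with a mean of at least 1 FPKM that was above 0 in both ages, and each blue point is a kallikrein. The horizontal axis is the mean FPKM of both ages on a log axis, the vertical axis is the difference of log2(FPKM + 1) at 6 minus 2 months, and the dashed lines mark 2-fold. Klk7 at -2.48 and Klk9 at -1.23 lie under the lower line, and the other 7 kallikreins drawn lie between it and 0.

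The cascade begins with Klk5, a trypsin-like protease that activates itself. Klk5 was among the lowest of the family, with 2.1 FPKM in 2 month and 1.15 FPKM in 6 month cells, a difference of -0.53. Klk14, the other trypsin-like protease that starts and amplifies the cascade in skin, was the member with the second highest level. It had 702 FPKM in 2 month and 469 FPKM in 6 month cells, 33.2% lower. Klk14 thus stood at rank 161 of 23361 genes at 2 months and at rank 202 at 6 months, counted from the highest FPKM, while Klk5 stood at ranks 11283 and 12357.

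Klk7 cuts corneodesmosin and desmocollin and is the best known chymotrypsin-like enzyme of desquamation. Its level was 39.1 FPKM in 2 month and 6.20 FPKM in 6 month cells, 84.2% lower, with a log2 difference of -2.48. Among the 12652 genes, 79 of them listed at 0 in 1 age, its difference was the 63rd lowest. The level of Klk7 moved from rank 2358 to rank 8600 of the table. Klk9, a chymotrypsin-like member, had 20.8 FPKM in 2 month and 8.26 FPKM in 6 month cells, a difference of -1.23 and the 110th lowest. Klk7 and Klk9 were the only members to change order between the ages: the ratio of Klk7 to Klk9 was 1.88 at 2 months and 0.751 at 6 months. The ratio of Klk14 to Klk7, the trypsin-like to the chymotrypsin-like enzyme, was 17.9 at 2 months and 75.7 at 6 months.

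Klk8, also called neuropsin, is a trypsin-like protease of the upper epidermis and of the brain. Klk8 had 123 FPKM in 2 month and 73.0 FPKM in 6 month cells, 40.5% lower, with a difference of -0.74. Klk6, also called neurosin, had 1.15 FPKM in 2 month and 0.413 FPKM in 6 month cells. With both values that low, its difference of -0.61 came to 2.79-fold in FPKM, and its mean of 0.781 FPKM kept it out of the counts. Klk12, a trypsin-like protease, had 69.8 FPKM in 2 month and 46.7 FPKM in 6 month cells, a difference of -0.57.

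The remaining members were abundant and lay closer together. Klk10 was the highest of the family at both ages, with 857 FPKM in 2 month and 625 FPKM in 6 month cells, 27.1% lower. Klk13 had 366 FPKM in 2 month and 283 FPKM in 6 month cells, a difference of -0.37. Klk11, also called hippostasin, had 252 FPKM in 2 month and 237 FPKM in 6 month cells, 5.96% lower. Its difference of -0.09 was inside the quartiles of all genes and ranked 3648 from the lowest, while the differences of the other 8 members that passed the filter ranked between 63 and 424. Scaling both ages to the same sum without small RNA genes moved the difference of Klk11 to 0.0076, and the other members stayed lower at 6 months.

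At 2 months the order from the highest level to the lowest was Klk10, Klk14, Klk13, Klk11, Klk8, Klk12, Klk7, Klk9, Klk5 and Klk6, and the ratio of the first to the last was 746. With no spread known, no neighbours in this order can be said to differ. Klk10, Klk14, Klk13 and Klk11 together held 89.5% of the summed level of the family at 2 months and 92.2% at 6 months. The difference in the sum came mostly from the abundant members: Klk14 made up 34.1% of it, Klk10 33.9% and Klk13 12.2%, while Klk7 made up 4.82%. Without Klk7 and Klk9 the sum was 26.9% lower at 6 months. The share of Klk11 in the sum was 10.3% at 2 months and 13.5% at 6 months, and that of Klk7 was 1.61% and 0.354%.

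**Figure D2:**
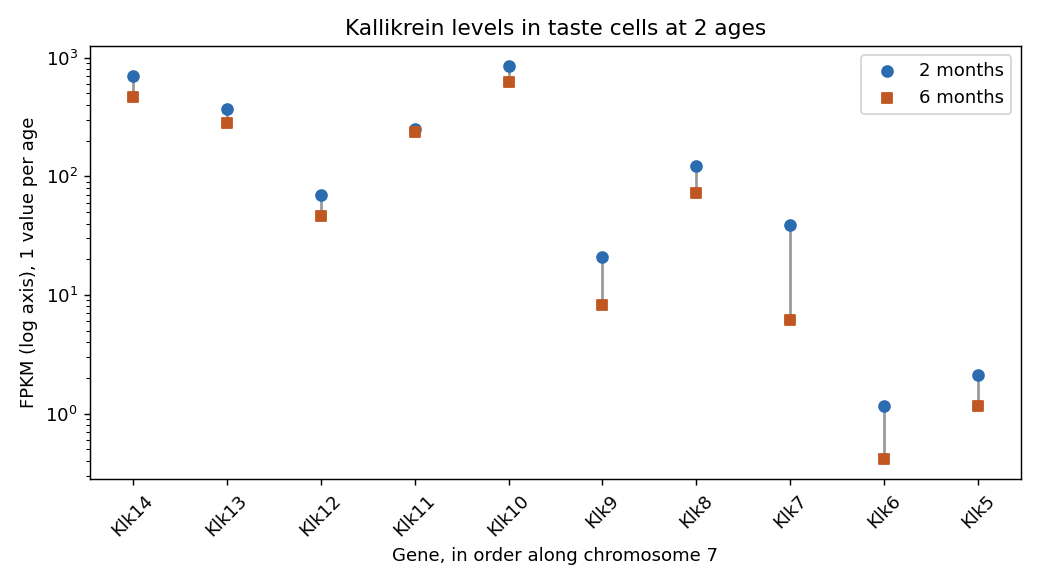
Level of each kallikrein in FPKM on a log axis, with the genes in their order along chromosome 7; circles are 2 months and squares are 6 months, each the authors' 1 value per age, so no error is drawn. In these values as deposited every square lies under its circle, with the longest line for Klk7 (39.1 and 6.20 FPKM) and the shortest for Klk11 (252 and 237 FPKM).

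The members stand side by side on mouse chromosome 7. In the GENCODE annotation of GRCm38 they cover 161 kb, chr7:43690418-43851181, all on the + strand, in the order Klk14, Klk13, Klk12, Klk11, Klk10, Klk9, Klk8, Klk7, Klk6 and Klk5. Each has 5 to 7 exons in the transcript used here. On the log2(FPKM + 1) scale the 3 lowest differences among the members that passed the filter belonged to neighbours, Klk9 at -1.23 (chr7:43791891-43796757), Klk8 at -0.74 (chr7:43797577-43803826) and Klk7 at -2.48 (chr7:43811294-43816359). Klk10 at -0.45 (chr7:43781035-43785410) and Klk6 at -0.61 (chr7:43824499-43832030) flanked them. This order depends on the scale: with a pseudocount of 0.1 FPKM, Klk5 at the far end of the cluster was at -0.81 and Klk8 at -0.75, so that Klk5 took the third place. Outside the cluster, Ctu1, which encodes a subunit of a tRNA-modifying enzyme and lies next to Klk14, had 7.23 FPKM in 2 month and 8.01 FPKM in 6 month cells, a difference of 0.13. Of a chosen list of genes around the cluster, Ctu1, Etfb, Josd2 and Shank1 passed the filter, 2 lower and 2 higher at 6 months, with a median of 0.04. The list does not hold every gene of the region. 2310002F09Rik, which overlaps the cluster, was at -0.34. Other kallikrein genes lie past Klk5 on the same strand, and 3 of them passed the filter. These were Klk1b1 at -1.50, Klk1b11 at -1.31 and Klk1b26 at -1.23, all from low levels. Klk1b1 and Klk1b11 passed the filter through their 2 month level alone, which favours a lower 6 month value. Only Klk1b26 was above 1 FPKM at both ages, with 4.39 FPKM in 2 month and 1.29 FPKM in 6 month cells. Reads can also be split among the alike Klk1b copies, so how far the lower values reach past the members is uncertain. Beyond these genes, 2410002F23Rik was at -0.03.

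**Figure D3:**
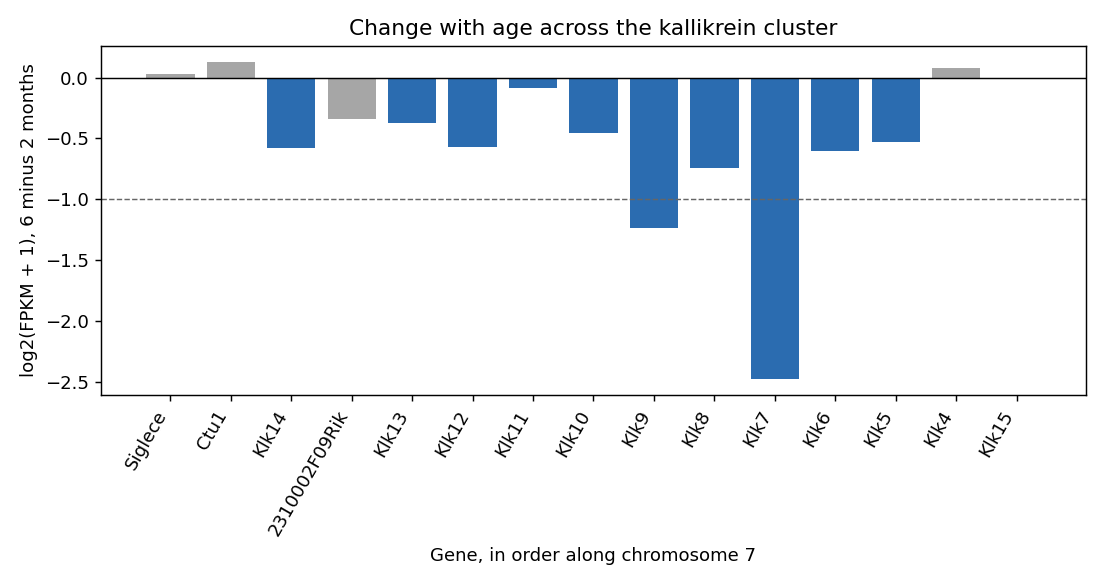
Difference of log2(FPKM + 1) at 6 minus 2 months for genes in their order along chromosome 7, with kallikrein members in blue, other genes in grey and the 2-fold line dashed; 1 value per age and no error. The bars of Klk9 (-1.23) and Klk7 (-2.48) pass the line with Klk8 (-0.74) between them, while Ctu1 beside the cluster is at 0.13. The genes drawn end at Klk15, so the Klk1b genes past it are not drawn.

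The members are distinct in sequence: no stretch of 50 bases occurred in the transcripts of more than 1 member, and the coding sequences of the 45 pairs were 57.7% to 66.4% identical, with a median of 62.4%. The RNA kit did not mark strand, and a noncoding RNA on the opposite strand, 2310002F09Rik, runs from the end of Klk14 to the start of Klk8. Of the 50-base stretches of Klk14 and Klk8, 20.5% and 26.2% lie opposite its exons, and the other members have none, Klk7 and Klk9 included. The level of 2310002F09Rik was 1.35 FPKM in 2 month and 0.861 FPKM in 6 month cells, against 702 and 469 FPKM for Klk14 and 123 and 73.0 FPKM for Klk8.

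Promoters of the cluster were searched for 4 short motifs on both strands, in RefSeq windows of GRCm38.p6 from 250 bases before to 50 after each gene start. The 10 members had 12 such windows. The GC box GGGCGG, the core of sites for Sp-family factors, was in windows of 4 members, Klk9, Klk8, Klk7 and Klk6, which follow each other on the chromosome. It was in 4 of the 10 members and in 38.2% of the 27025 genes with a window, a share near that of the members. Klk5, Klk10, Klk11, Klk12, Klk13 and Klk14 had none, though Klk5 was 1.82-fold lower in FPKM. Whether the motif goes with the difference in level was not tested. Klk7, Klk8 and Klk9, neighbours among the 4 members that hold the motif, are printed 5′ to 3′ on the + strand. Klk6, the other neighbour with a GC box near a start, is not printed. Given are the 250 bases before the start of Klk7 (chr7:43811044-43811293) and of Klk8 (chr7:43797327-43797576), and 30 bases at the start of Klk9 (chr7:43791889-43791918). Klk14 (chr7:43690168-43690417), abundant and 33.2% lower, is shown beside them as a member with no GC box. Capitals mark the GC box, which reads CCGCCC in Klk7 because it is on the opposite strand there.
Klk7: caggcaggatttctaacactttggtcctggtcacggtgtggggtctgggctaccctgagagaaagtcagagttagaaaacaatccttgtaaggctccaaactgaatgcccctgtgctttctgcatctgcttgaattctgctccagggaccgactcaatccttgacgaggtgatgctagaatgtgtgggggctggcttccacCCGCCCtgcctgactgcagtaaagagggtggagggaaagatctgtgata
Klk8: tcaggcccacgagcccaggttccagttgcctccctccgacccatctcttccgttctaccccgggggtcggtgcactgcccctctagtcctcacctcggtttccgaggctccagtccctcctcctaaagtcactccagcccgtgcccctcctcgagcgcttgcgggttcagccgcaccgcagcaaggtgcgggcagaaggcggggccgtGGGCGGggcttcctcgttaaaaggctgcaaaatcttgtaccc
Klk9: tgattaatcacaGGGCGGccccaacggagg
Klk14: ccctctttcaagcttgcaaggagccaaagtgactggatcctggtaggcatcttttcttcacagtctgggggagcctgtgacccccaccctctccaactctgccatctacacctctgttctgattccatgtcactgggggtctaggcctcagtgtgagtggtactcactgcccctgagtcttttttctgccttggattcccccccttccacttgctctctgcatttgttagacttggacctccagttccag

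The GC box began 49 bases before the start in Klk7 and 42 bases before it in Klk8, and at base 11 of the transcript in Klk9. Klk6 had 3 of them, 56 and 166 bases before its first start and 136 bases before its second start. The AP-1 motif TGANTCA, bound by Fos and Jun factors, was in none of the 12 windows and in 7.81% of all 32851 windows. The grainyhead-like motif AACCGGTT and the TATA box TATAAA were also in none of the 12, beside 0.146% and 13.6% of all windows. These are counts of letters in a window and say nothing of whether a factor binds there or elsewhere.

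Of the 16 kallikrein genes outside the members, 3 passed the filter. Each of the 3 was lower at 6 months by at least 2-fold, beside 1.04% of all genes. They belong to the Klk1b group of glandular kallikreins, which lies past Klk5 on chromosome 7. Klk1b1 had 3.59 FPKM in 2 month and 0.620 FPKM in 6 month cells, Klk1b11 had 3.21 and 0.701 FPKM, and Klk1b26 had 4.39 and 1.29 FPKM. The Klk1b genes are closely similar copies among which reads can be split, so their separate levels are uncertain, and Klk1b1 and Klk1b11 passed the filter through their 2 month level alone. Lipf, the lingual lipase of the glands that open at these papillae, was also lower, with 83.7 FPKM in 2 month and 14.7 FPKM in 6 month cells. Of the gland marker list 5 genes passed the filter and 4 of them were lower, its sum was 126 FPKM in 2 month and 47.2 FPKM in 6 month cells, and Lcn11 and Bpifb9b were listed at 0. Without Lipf the sum of the list was 42.3 FPKM in 2 month and 32.5 FPKM in 6 month cells, and Dcpp2 was higher, with 1.45 and 3.28 FPKM. The part of gland cells in the result on Klk1b genes was not tested.

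Inhibitors of these proteases were given by a list of 16 genes, of which 12 passed the filter. Of the 12, 10 were lower and 2 higher at 6 months, and the median was -0.28, beside -0.01 over all genes. By at least 2-fold, 1 of the 12 was lower and none was higher. Over all genes, 53.7% were lower by any amount and 1.04% by at least 2-fold. These shares also stand beside the counts of the lists below. Spink5, the main inhibitor of Klk5, Klk7 and Klk14, was on the higher side, with 156 FPKM in 2 month and 163 FPKM in 6 month cells, a difference of 0.06. The summed level of the kallikreins was 15.6 times that of Spink5 at 2 months and 10.8 times at 6 months. For Klk7 alone the ratio to Spink5 was 0.251 and 0.0381. These are ratios of RNA and not of protein or activity.

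Slpi, a secreted inhibitor of leukocyte elastase that also blocks Klk7, was the inhibitor past 2-fold, with 958 FPKM in 2 month and 454 FPKM in 6 month cells, a difference of -1.07. Wfdc12 and Wfdc5 encode inhibitors with the same WAP fold as Slpi. Wfdc12 had 102 FPKM in 2 month and 60.6 FPKM in 6 month cells, a difference of -0.74, and Wfdc5 had 43.0 and 30.6 FPKM, a difference of -0.48. Inhibitors of membrane-bound proteases differed less: Spint1 was at -0.15 and Spint2 at -0.13.

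Proteases that can activate kallikrein proenzymes, or act beside them at the cell surface, formed a list of 15 genes, of which 12 passed the filter. Of the 12, 10 were lower and 2 higher, none by 2-fold, with a median of -0.22 and a range from -0.38 to 0.06. St14, the membrane protease matriptase that can activate kallikreins in the epidermis, had 74.6 FPKM in 2 month and 67.3 FPKM in 6 month cells, a difference of -0.15. Prss8, or prostasin, the partner of matriptase, had the lowest difference of the list at -0.38, with 38.9 and 29.7 FPKM. Tmprss11a and Tmprss11d, membrane proteases of the airway and oral lining, each had 256 FPKM at 2 months, and had 219 and 239 FPKM at 6 months.

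Of 10 listed substrates and receptors in the table, 7 passed the filter, 2 lower and 5 higher, with a median of 0.09. Cdsn, or corneodesmosin, the corneodesmosome protein that Klk5, Klk7 and Klk14 cut, was the only one past 2-fold, with 147 FPKM in 2 month and 63.9 FPKM in 6 month cells, a difference of -1.19. The cadherins of the same junctions were on the other side of 0. Dsc1 had 55.6 FPKM in 2 month and 70.4 FPKM in 6 month cells, a difference of 0.33, and Dsg1a and Dsg1b were at 0.13 and 0.19, though Dsg1 copies are alike and reads can be split between them. F2rl1, the receptor PAR2 that Klk5 and Klk14 can switch on by cutting it, had 15.1 FPKM in 2 month and 13.5 FPKM in 6 month cells, a difference of -0.16.

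Other proteases of the cornifying layers were a list of 12, of which 10 passed the filter, 9 lower and 1 higher, with a median of -0.18. Asprv1, a retroviral-like aspartic protease that processes filaggrin, was the one past 2-fold, with 753 FPKM in 2 month and 361 FPKM in 6 month cells, a difference of -1.06. Blmh, or bleomycin hydrolase, which helps break filaggrin down, was at -0.51, and the lysosomal protease Ctsl was at -0.36. Ctsd, or cathepsin D, a desquamation protease of another class, was near 0 at -0.02, with 467 FPKM in 2 month and 460.4 FPKM in 6 month cells. Casp14, the caspase of cornification, was at 0.07.

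**Figure D4:**
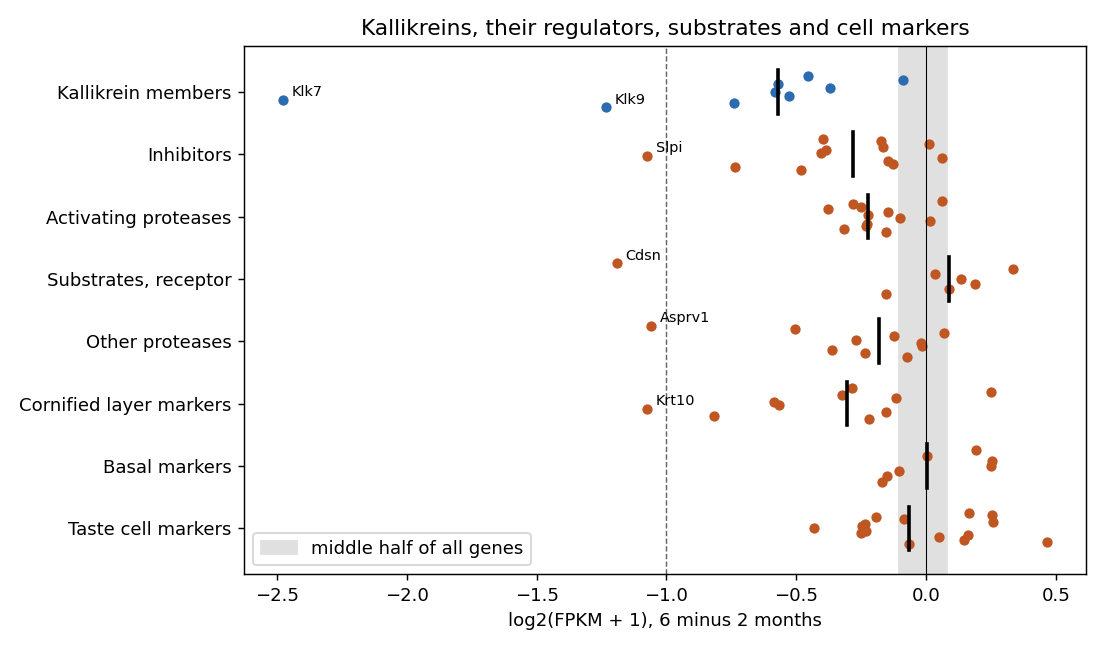
Each point is 1 gene with a mean of at least 1 FPKM, placed by its difference of log2(FPKM + 1) at 6 minus 2 months; rows are the lists, black bars their medians, the grey band the range between the quartiles of all genes and the dashed line 2-fold lower. The kallikrein median is at -0.57 and the cornified layer median at -0.30. The Klk1b genes and gland markers are not drawn, and of the genes drawn Klk7, Klk9, Slpi, Cdsn, Asprv1 and Krt10 are past the line.

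Kallikreins are made by cornifying keratinocytes, and the isolated cells held RNA of these as well as of taste cells. Of the 11 cornified layer markers in the table, 10 passed the filter, 9 lower and 1 higher, with a median of -0.30, and their sum was 13165 FPKM in 2 month and 11388 FPKM in 6 month cells. Krt10, a keratin of the spinous and cornified layers, was at -1.08, Lor (loricrin) at -0.82, Ivl (involucrin) at -0.59 and Krt1 at -0.57. The abundant Krtdap was at -0.15 and Calml3 was at 0.25. Krt2, another keratin of the list, was near 0 at both ages. The ratio of the 6 month sum to the 2 month sum was 0.865 for these markers and 0.719 for the kallikreins. For the taste cell markers given below it was 0.871, near that of the cornified layer markers, and for the basal keratinocyte markers 0.997. The low ratio of the kallikreins was not particular to them. It was 0.709 for the inhibitors and 0.706 for the other proteases, beside 0.881 for the activating proteases and 0.956 for the substrates and receptor. Abundant genes weigh most in such sums: Krtdap alone had 4894 FPKM in 2 month and 4404 FPKM in 6 month cells. Much of the lower inhibitor sum, 2136 and 1515 FPKM, came from Slpi alone, with 958 and 454 FPKM. Likewise Asprv1 had 753 and 361 FPKM in the sums of the other proteases, 1655 and 1169 FPKM. The medians of these lists, -0.28 and -0.18, were smaller in size than the -0.57 of the kallikreins. The part of cornifying cells in the lower kallikrein values was not tested.

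Of the 7 basal keratinocyte markers 3 were lower, the median was 0.00, and their sum was 4705 FPKM in 2 month and 4689 FPKM in 6 month cells. Krt14 was at 0.25 and Krt5 at -0.15. Of 16 taste cell markers 15 passed the filter, 8 lower and 7 higher, with a median of -0.07 and sums of 1096 and 954 FPKM. Gnat3, the taste G protein gustducin, was present at 84.7 and 79.9 FPKM. Among 7 markers of the oral suprabasal layers, the 6 that passed had a median of -0.10, but Krt13 was listed at 0 in both ages, Krt4 at 7334 FPKM at 2 months and at 0 at 6 months, and Krt6a at 0 and at 3391 FPKM. A 0 for a keratin of this abundance can be a failed estimate. No kallikrein member was listed at 0. Of all genes past the filter, 79 were listed at 0 in 1 age, and 76 of these were small RNA genes. Of the 131 genes lower by at least 2-fold, 48 were listed at 0 in 1 age.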

How the data were processed

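RNA of isolated CV/Fol taste cells was sequenced in 3 pooled libraries per age. Per the labels and methods, the authors mapped reads with TopHat (2.0.7) to GRCm38/mm10, quantified RefSeq genes with Cufflinks (2.1.1) and compared the ages with Cuffdiff. The authors deposited 1 FPKM value per gene and age, and a p-value of their own comparison, which was not used. Columns were assigned to ages through the letters that the table and the sample titles share. Depth per library is unknown, so the counting precision of a value cannot be given.

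Differences of log2(FPKM + 1) were computed for genes whose mean reached 1 FPKM, and counted at 2-fold. No test was run, since values of single libraries were not used. All 10 members could be named, and of the other lists the genes past the filter. The members, lists and motifs were chosen with earlier results of these data known. Coordinates and transcripts came from GENCODE annotation of GRCm38, and promoters from RefSeq GRCm38.p6. Alternatives were a pseudocount of 0.1 FPKM, 2 scalings, a filter at 5 FPKM, no filter and 1.5-fold. Calculations used Python 3.11.15, pandas 2.3.3 and Biopython 1.88. The counting was run on simulated differences well past 2-fold, with little noise, in genes of at least 5 FPKM. That run checks the code only, and does not cover smaller differences, lower genes or the spread between pools.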

Additional observations from a re-analysis of the deposited data

How the results depend on the processing

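With 1 value per age, no spread between pools was computed and no library could be left out. No paired analysis was made, since the pools of the 2 ages came from different mice and the labels give no pairing. A median was taken as moved when it shifted by over 0.1 on the log2 scale. Of 47 alternatives of the medians, counts and sums, 45 stayed within that or within 1.5 times a count. Much of this was fixed in advance. The scalings multiplied 6 month values by 1.03 to 1.07, under 0.1 on the log2 scale, so they could hardly move a median or sum. The count of lower members went from 2 at 2-fold to 3 at 1.5-fold, which just met the limit for a count. The inhibitor median went from -0.28 to -0.17 with no filter and to -0.39 with the filter at 5 FPKM, which change the genes that enter it. The difference of Klk11 turned from -0.09 to 0.0076 under equal sums without small RNA genes, a scaling by 1.07. That scaling moved the median of all genes to 0.07, and the genes lower and higher by at least 2-fold to 121 and 78, from 131 and 71. A pseudocount of 0.1 FPKM, used on single members after seeing the data, gave -0.81 for Klk5, -1.29 for Klk6 and -2.64 for Klk7. A scaling that also left out genes listed at 0 was added after seeing the data, and kept all 9 members past the filter lower.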
